A study of Danio rerio with 6 samples.

Results

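The genes described here encode splicing factors of the zebrafish embryo and their relatives by name, some of which, such as lsm12b and lsm14ab, are not known as parts of the spliceosome. They were chosen by name, as genes whose single symbol in the platform annotation starts with one of a set of prefixes. Those were srsf, lsm, sf3a, sf3b, u2af, prpf or rbm before a number, hnrnp before a letter, and snrp before either. Symbols that start with tra2 were also taken, together with yju2. The choice was made with earlier results of these data known. The rule found 102 genes among the 8793 named genes of the array, and each was represented by its brightest probe set, the one with the highest mean over all arrays. Affymetrix zebrafish arrays had been hybridised with total RNA of whole AB strain embryos collected at 12 h after fertilisation, the 6-somite stage, after growth at 28.5 °C. The 6 arrays form 2 groups of 3: embryos labelled as wild type controls, and Ovo1 morphants, which had received a morpholino, a synthetic antisense molecule, that targets the zinc finger transcription factor Ovo1. The morphants carry the sox10(7.2):gfp reporter on their sample labels, while the series description gives the reporter to the controls as well. Whether controls received any injection is not stated in the sources used here. Injection as such, other effects of the morpholino, a reporter line that may differ and loss of Ovo1 therefore cannot be told apart. Neural crest defects first become visible in morphants at about this age, per the series description, and the comparison asks which transcripts differ between the groups then.

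Pre-mRNA splicing removes introns in a series of assemblies of small nuclear ribonucleoproteins (snRNPs), each a small RNA with a ring of Sm or Lsm proteins and proteins of its own. SR proteins, which carry arginine-serine repeats, bind exonic enhancers and recruit the U1 and U2 snRNPs, whereas hnRNP proteins coat nascent transcripts and often repress nearby splice sites, so the balance of the classes helps to set which exons are kept. Prp proteins act in the tri-snRNP and in the catalytic complexes. These roles were mostly worked out in human cells and in budding yeast. In zebrafish, mutants of sf3b1, which encodes a branch point binding subunit of the U2 snRNP, have neural crest defects, and loss of yju2 (also known as ccdc94) makes embryos sensitive to ionising radiation through p53.

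Several SR and hnRNP genes, srsf1b, srsf2b, hnrnpc and hnrnpd among them, were lower in morphants, and yju2, which the rule names singly, fell the most. Of the 102 genes, 14 were lower and 5 higher in morphants at a limma p under 0.05 after Benjamini-Hochberg adjustment over all probe sets (n = 3 per group), which is 13.7% and 4.9%. The 14 include yju2, which was chosen singly with earlier results known, so that count is not independent of the choice. Among all named genes 3.57% were lower and 3.23% higher, 6.8% in all. Most members were bright, 93 lying above the median named gene, and among the named genes above that median 9.14% were called. The median log2 difference of the 102 genes was −0.09, against 0.0070 over all named genes. All 3 morphants lay below all 3 controls in 24 members and above them in 15, while the shares over all named genes were 14.4% and 14.5%. An unadjusted p under 0.05 was reached by 36 members, and by 23.9% of all named genes. Each level given below is a normalised intensity, and each difference is morphant minus control on the log2(intensity + 16) scale with its standard error, so that the changes of genes with low signal are understated. Percent changes are on the same scale, and standard errors are those of the fit without a replicate block. Levels on single arrays are listed in the order of replicates 1, 2 and 3. Signals of different probe sets are not compared as transcript levels.

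**Figure D1:**
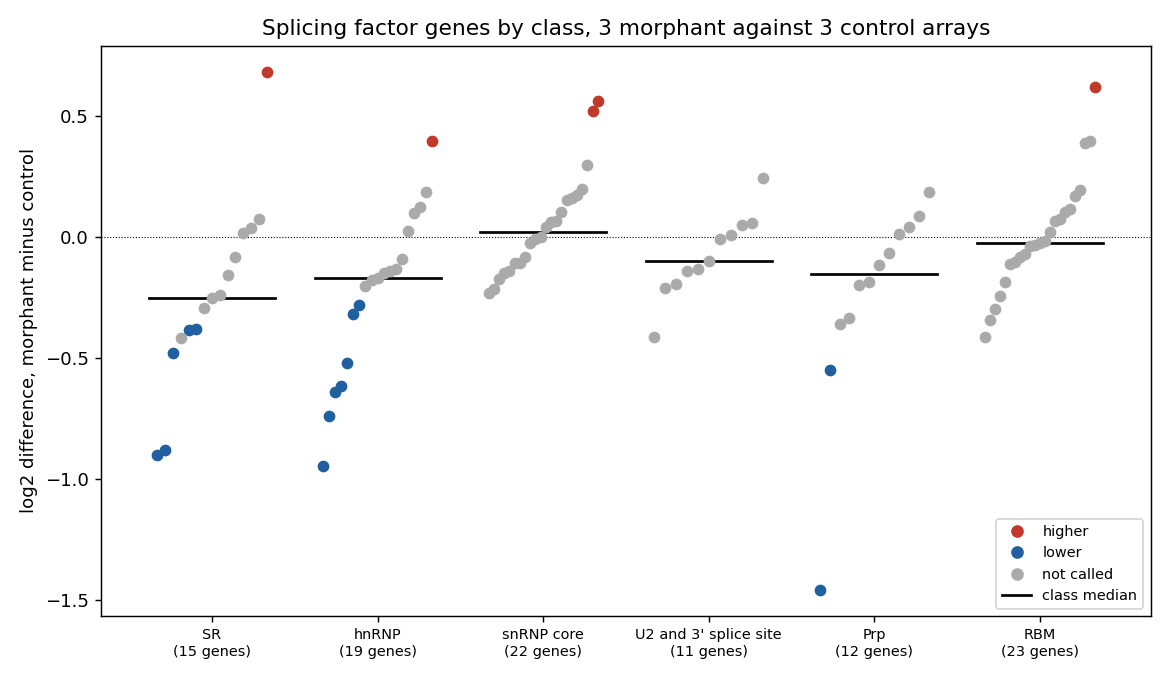
Log2 difference between morphants and controls (vertical axis) for each of the 102 genes, grouped by class, with 1 point per gene and a bar at the class median. Lower calls lie in the SR, hnRNP and Prp classes, with yju2 lowest at −1.46, and the other classes have none. The lower calls of the Prp class are prpf4bb and yju2, which was chosen singly with earlier results known.

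By class, 5 of 15 SR genes were lower and 1 higher (40% called), and 7 of 19 hnRNP genes were lower and 1 higher (42.1%). Over all named genes 6.8% were called, and 9.14% of those above the median named gene. In the Prp class 2 of 12 (16.7%) were lower, yju2 and prpf4bb, and 0 higher. By symbol yju2 is not a prpf gene, and it entered the rule singly with earlier results known. The share of the Prp class is therefore not independent of that choice. Among the prpf genes themselves, prpf4bb alone was called in limma. In the snRNP core class 0 of 22 were lower and 2 higher (9.09% called), about the share among the bright named genes. That class takes every snrp and lsm symbol, so it also holds genes such as lsm12b and lsm14ab. In the RBM class 0 of 23 were lower and 1 higher (4.35% called), under the share of all named genes. None of the 11 genes of the U2 snRNP and the U2AF dimer, which recognise the branch point and the 3' splice site, was called in limma. Of these, 3 had an unadjusted p under 0.05, a level reached by 23.9% of all named genes. The class medians were −0.25 for SR, −0.17 for hnRNP, −0.15 for Prp, −0.10 for the U2 class, −0.02 for RBM and 0.02 for the snRNP core. The difference between classes was not tested. In whole embryos, fewer cells of a type and less RNA per cell cannot be told apart. The labels do not say whether replicate arrays stem from separate clutches, and each p therefore measures only the spread among these 6 arrays, part or all of which may be technical.

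These counts moved when 1 array was left out. Each such fit also has 1 array fewer, and the effect of that was not separated from the part of the array itself. The share of all named genes called in each such fit is not given here. A general change in calls therefore cannot be told apart from a change in these genes. The number of lower genes was 5 when control array 2, control array 3 or morphant array 2 was left out, 7 for control array 1, 9 for morphant array 3 and 22 for morphant array 1. The number of higher genes was 3 when control array 3 was left out and at most 6 otherwise. Lower SR genes ranged from 2 to 6 and lower hnRNP genes from 2 to 9 over the same 6 fits. The median difference of the 102 genes lay between −0.11 (control array 3 left out) and −0.04 (morphant array 3 left out). Leaving out morphant array 3 also brought the median nearest to 0 in the hnRNP (−0.10), Prp (−0.02) and U2 (−0.03) classes. The medians of the RBM class (−0.07 to 0.02) and of the snRNP core (−0.01 to 0.06) changed sign between fits, and that of the SR class lay between −0.29 and −0.19. With the replicate number as a block, which compares each morphant with the control of its own number, 26 genes were lower and 12 higher, beside 10.6% and 10.7% of all named genes, and all 19 calls were kept. The labels do not say that arrays of the same number belong together. The 8 genes that stayed called without each array in turn were srsf1b, srsf2b, tra2b, hnrnpc, hnrnph1l, snrpd1, lsm12b and yju2. Of the 284 named genes called higher, 92 stayed called in this way, and of the 314 called lower, 75.

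Other gene groups differed between the same arrays, and their part in the splicing factor changes was not tested. These lists were chosen with earlier results of these data known. Over all named genes 3.23% were higher and 3.57% lower, or 10.7% and 10.6% with the replicate block. Of 12 measured damage response genes, mostly targets of p53, 10 were higher and 0 lower, and their summed level was 10884 to 11051 in controls and 29171 to 30168 in morphants. Of 15 DNA replication genes 8 were lower and 0 higher, with summed levels of 41905 to 43906 in controls and 33887 to 34067 in morphants. Of 17 neural plate genes 6 were lower (10 with the replicate block) and 0 higher, with summed levels of 13579 to 14230 in controls and 11006 to 12073 in morphants. These sums add intensities of different probe sets, so that bright ones weigh most. The median log2 differences of the 3 lists, in the same order, were 1.83, −0.37 and −0.34. No gene of these 3 lists was at 0 on any array. The list of whole embryo tissue markers held 26 symbols, some of which may name the same gene. Of these, 22 were measured and 21 lay above the 25th percentile of all probe sets, all but the endoderm gene sox32. The array medians ranged from 132.73 to 154.08 before normalisation, and with 3 arrays per group the precision of all values is limited by the number of arrays. No probe set carries an ovo symbol in the platform annotation used here, so the knockdown could not be checked.

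The per-array class medians, relative to each gene's control mean, put the morphants below the controls in the SR and hnRNP classes. In the SR class they were −0.02, 0.05 and −0.05 for the controls against −0.17, −0.18 and −0.32 for the morphants. In the hnRNP class they were 0.03, 0.02 and −0.03 in controls and −0.15, −0.25 and −0.29 in morphants. The groups did not overlap in either class. Each gene's control mean includes the control arrays, which holds the controls near 0. Over all 102 genes the groups overlapped, with 0.002, 0.05 and −0.05 in controls and −0.01, −0.04 and −0.11 in morphants. There morphants 1 and 2 sat among the controls. The groups also overlapped in the U2 and RBM classes. In the snRNP core they overlapped as well, with −0.01, 0.06 and −0.05 in controls and 0.05, 0.05 and −0.05 in morphants. The Prp class had −0.01, −0.13 and −0.28 in morphants, a spread in which morphant 1 sat among the controls (0.02, 0.05 and −0.06).

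**Figure D2:**
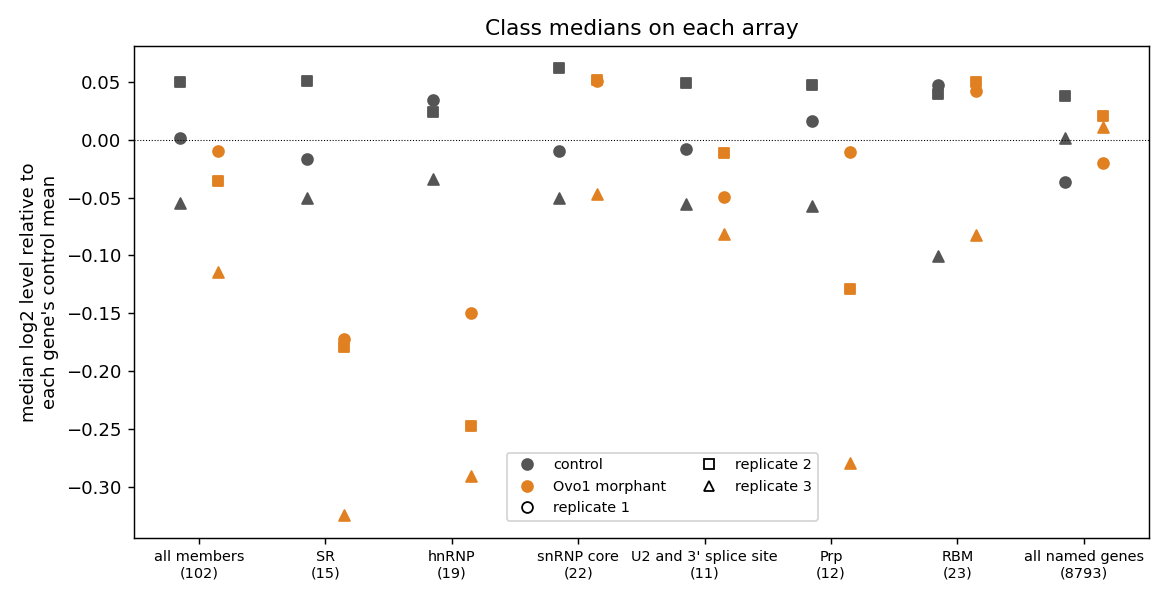
Median log2 level of each class on each array, relative to the control mean of each gene (vertical axis), with the number of genes under each class name. Morphant arrays lie below all control arrays in the SR and hnRNP classes. In the other classes and over all members the groups overlap. Over all named genes all 6 arrays lie between −0.04 and 0.04, where quantile normalisation, which gives every array the same distribution, keeps them close.

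Among SR genes the largest decreases were in srsf2b and srsf1b. The gene srsf2b, which encodes a counterpart of human SRSF2 (SC35), a splicing factor stored in nuclear speckles, measured 1049.8, 1256 and 1077 on the control arrays against 581, 606 and 599 on the morphant arrays. All morphants lay well below all controls, and the level fell by 46.4% (−0.90 ± 0.10, limma adjusted p = 0.00160). The gene srsf1b, a counterpart of human SRSF1, the prototype SR protein, stood at 1262, 1381 and 1489 in the controls compared with 674, 791 and 764 in the morphants. Again the groups stood apart, and the level fell by 45.5% (−0.88 ± 0.10, adjusted p = 0.00213), and a further probe set of srsf1b gave −0.97 ± 0.13 (adjusted p = 0.00406). Both genes stayed called without each array in turn (adjusted p up to 0.0133 and 0.0189).

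Smaller decreases were seen in srsf5a, srsf4 and srsf3b. The gene srsf5a had control levels of 3909, 4218 and 3682 and morphant levels of 3077, 2410.3 and 3026, a difference of −0.48 ± 0.10 (adjusted p = 0.0315). The gene srsf4 measured 3271, 3289 and 2914 on the control arrays against 2624, 2452 and 2188 on the morphant arrays, a difference of −0.38 ± 0.09 (adjusted p = 0.0394). The gene srsf3b, a counterpart of human SRSF3, the smallest SR protein and an adaptor of mRNA export, stood at 2097, 2186 and 2179 in the controls compared with 1593, 1660.1 and 1699.8 in the morphants. The arrays of each group lay close together, with no overlap (−0.38 ± 0.07, adjusted p = 0.0171). Leaving out control array 2 or 3 or morphant array 2 ended the srsf3b call (largest adjusted p 0.110). Leaving out any of these arrays or control array 1 ended the srsf5a call (largest 0.131). The srsf4 call ended without any array but morphant 1 (largest 0.151). Centring the arrays on their medians, in place of quantile normalisation, ended the calls of srsf3b and srsf4 (adjusted p = 0.0534 and 0.0853), and moderation without an intensity trend those of srsf4 and srsf5a (0.0876 and 0.0703).

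The SR-like gene tra2b moved the other way. It encodes a counterpart of human TRA2B, which activates exons that carry purine-rich enhancers. The gene had control levels of 1661, 1378 and 1356 and morphant levels of 2118, 2479.6 and 2478, so that every morphant exceeded every control by a wide margin. The increase was 60.6% (+0.68 ± 0.10, adjusted p = 0.00776), and it stayed called without each array in turn (adjusted p up to 0.0495). The other 9 SR genes were not called. Of these, srsf5b (−0.42 ± 0.13), srsf1a (−0.29 ± 0.15), tra2a (−0.25 ± 0.10) and srsf2a (−0.24 ± 0.12) were lower in the fit with the replicate number as a block, at adjusted p of 0.00330, 0.00982, 0.0243 and 0.0325, which made the SR count 9 lower and 1 higher. The block called 66.7% of the class, beside 21.3% of all named genes. The gene srsf1a measured 2519, 3347 and 3039.8 on the control arrays against 1915, 2899 and 2503 on the morphant arrays, and srsf5b stood at 2603, 2543 and 2093 in the controls compared with 2132, 1797 and 1510.0 in the morphants. In both the groups overlapped, while each morphant lay below the control of its own number. The gene tra2a had control levels of 2388, 2258 and 1918 and morphant levels of 1932, 1817 and 1736, where morphant 1 lay just above control 3. The remaining 5 ran from −0.16 ± 0.06 in srsf6a to +0.07 ± 0.06 in srsf7a. The SR gene with the brightest probe set, srsf11, measured 5956, 5261 and 5314 on the control arrays against 5447, 4879 and 5278 on the morphant arrays, a difference of −0.08 ± 0.07 with a 95% interval of −0.24 to +0.07.

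**Figure D3:**
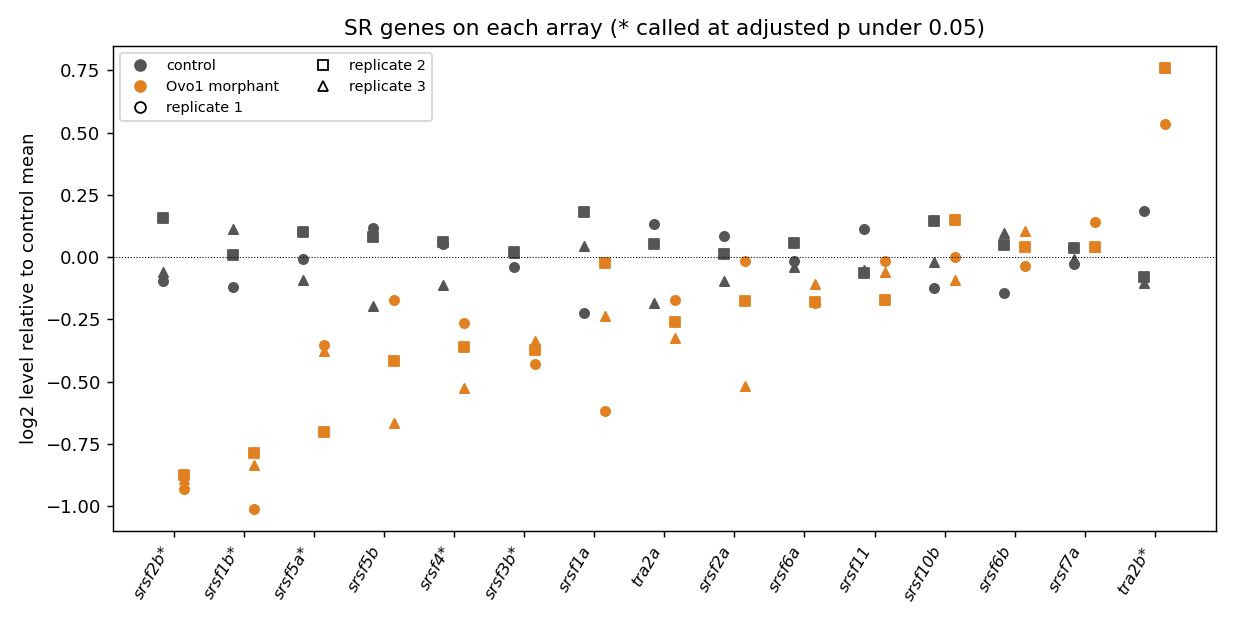
Log2 level of the 15 SR genes on each array relative to the control mean (vertical axis), with grey points for controls, orange points for morphants and a marker shape for each replicate number. Genes run from srsf2b at −0.90 to tra2b at +0.68, and asterisks mark the 6 called genes.

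In the hnRNP class the decrease was largest in hnrnpua. Its human counterpart HNRNPU binds RNA and chromatin in the nuclear matrix. The gene stood at 557, 581 and 581 in the controls compared with 405, 278 and 215 in the morphants, and the morphants were spread widely, all below the controls. The level fell by 48.0% (−0.94 ± 0.20, adjusted p = 0.0287). The gene hnrnph1, a counterpart of human HNRNPH1, which binds runs of guanines, had control levels of 190.0, 181 and 199 and morphant levels of 98.8, 90.7 and 137 (−0.74 ± 0.16, adjusted p = 0.0300). Its relative hnrnph1l measured 4504, 4387 and 4202 on the control arrays against 3200.2, 2538 and 2842 on the morphant arrays (−0.61 ± 0.09, adjusted p = 0.00524). Neither gene had overlapping groups.

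The gene hnrnpd encodes a counterpart of human HNRNPD (AUF1), which binds AU-rich elements and directs mRNA decay. It stood at 994, 1111 and 1146 in the controls compared with 777, 687 and 610.4 in the morphants, with every morphant below every control (−0.64 ± 0.11, adjusted p = 0.0153). A further probe set of hnrnpd gave −1.01 ± 0.13 (adjusted p = 0.00333). The gene hnrnpc, whose human counterpart binds uridine tracts and keeps cryptic exons out of mRNA, had control levels of 2229, 2318 and 2219.7 and morphant levels of 1537, 1546 and 1626. Its 3 arrays per group lay close together (−0.52 ± 0.07, adjusted p = 0.00406). Of the 8 called hnRNP genes, hnrnpc and hnrnph1l stayed called without each array in turn (adjusted p up to 0.0316 and 0.0362).

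The smallest called decreases were in hnrnpa0a and hnrnpl. The gene hnrnpa0a, a member of the A/B group, measured 3302, 3495 and 3175 on the control arrays against 2856, 2678 and 2475 on the morphant arrays (−0.32 ± 0.07, adjusted p = 0.0446), and neither of its further probe sets was called (−0.25 ± 0.09 and −0.22 ± 0.28). The gene hnrnpl, whose human counterpart binds CA repeats, stood at 3228, 3218 and 3328 in the controls compared with 2614, 2803 and 2624 in the morphants (−0.28 ± 0.06, adjusted p = 0.0362). For hnrnpa0a, hnrnpl and hnrnpua, leaving out any array but morphant 1 ended the call (largest adjusted p 0.163, 0.176 and 0.116). The hnrnph1 call ended when any control array or morphant array 2 was left out (largest 0.131). The hnrnpd call ended when control array 2 or 3 or morphant array 2 was left out (largest 0.0906).

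The 1 hnRNP gene that rose was hnrnpdl, a relative of hnrnpd. It had control levels of 3347, 3171 and 2905 and morphant levels of 4209.7, 4425 and 3790.3, with no overlap (+0.40 ± 0.08, adjusted p = 0.0255). Leaving out control array 2 or 3 or morphant array 2 ended its call (largest adjusted p 0.119). The calls of hnrnpdl and hnrnpl also ended on the values as deposited (adjusted p = 0.0736 and 0.0565), and those of hnrnpdl, hnrnpl and hnrnpa0a ended under median centring (0.127, 0.0952 and 0.110) and without an intensity trend (0.0750, 0.115 and 0.114). The other 11 hnRNP genes were not called. With the replicate block hnrnpabb (+0.19 ± 0.06, adjusted p = 0.0165) and hnrnpa0l (+0.13 ± 0.05, adjusted p = 0.0359) were higher, which gave 3 higher and 7 lower. The block called 52.6% of the class and 21.3% of all named genes. The gene hnrnpabb measured 7904, 7720.2 and 7538 on the control arrays against 9511, 8850.3 and 8088 on the morphant arrays, all morphants above all controls. The gene hnrnpa0l, the brightest of the class, stood at 9013, 8482 and 8292 in the controls compared with 9814, 9225 and 9104 in the morphants, again without overlap. Its probe set is of a type that matches several transcripts, as its suffix shows. The remaining 9 ran from −0.20 ± 0.11 in hnrnpul1 to +0.10 ± 0.06 in hnrnpm, and the polyC-binding hnrnpk stood at −0.13 ± 0.09.

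**Figure D4:**
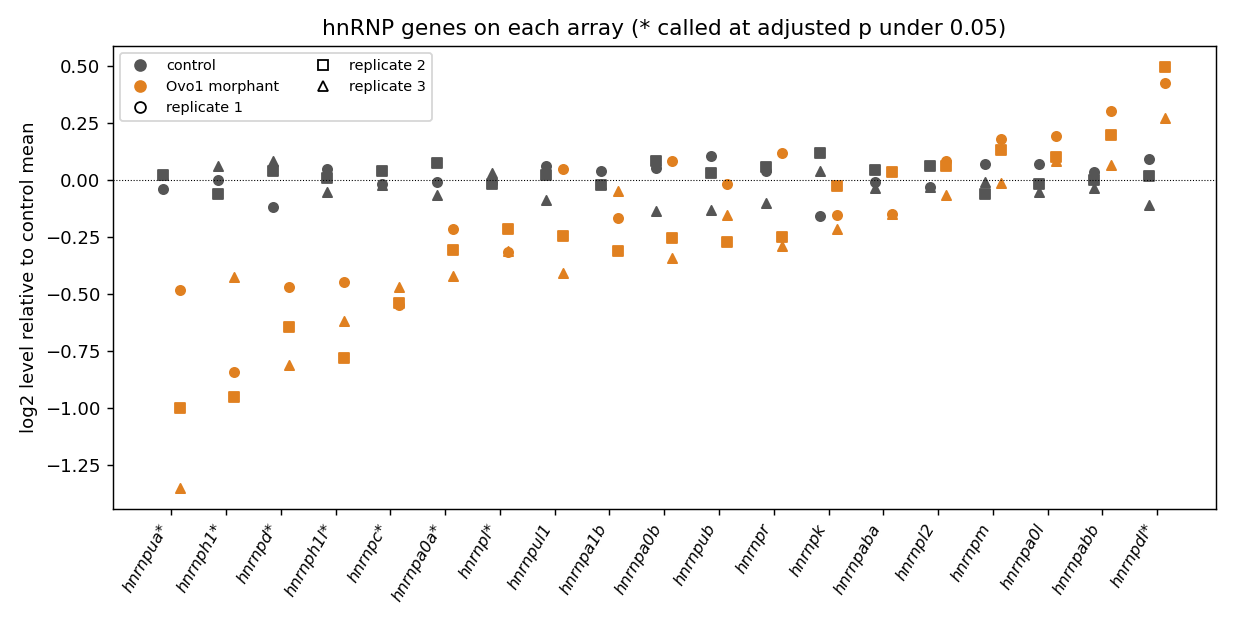
Log2 level of the 19 hnRNP genes on each array relative to the control mean (vertical axis), with grey points for controls, orange points for morphants and a marker shape for each replicate number. Genes run from hnrnpua at −0.94 to hnrnpdl at +0.40, and asterisks mark the 8 called genes.

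Vertebrate SR and hnRNP genes often exist as pairs of relatives with closely related products. The 17 pairs here were matched by symbol after the values were seen, and other relatives, such as hnrnpa0l, were left out. Among them, 1 pair was called in opposite directions, 1 had both members lower, 9 had 1 called member and 6 none. The opposite pair was hnrnpdl and hnrnpd, whose log2 differences were 1.04 apart, and it was no longer an opposite pair of calls where the hnrnpdl call ended, as given above. For tra2b and tra2a the gap was 0.94, for hnrnpub and hnrnpua 0.79, for srsf2b and srsf2a −0.66 and for srsf1b and srsf1a −0.58. In each of these 5 pairs the within-array log2 ratio of the relatives did not overlap between groups, and the exact two-sided permutation p was 0.1, the smallest that 3 against 3 arrays allow, or 0.155 after Benjamini-Hochberg adjustment over the 17 pairs. The same held in 6 further pairs, 11 of the 17 in all, and no pair could pass a threshold of 0.05. The share of such pairs over all gene pairs was not computed. For single genes, the groups did not overlap in 28.9% of all named genes. The gaps of srsf5b and srsf5a (0.06, exact p = 0.8) and of hnrnph1l and hnrnph1 (0.13, exact p = 0.5) lay within the spread. Related genes can share probe sequence, and probe sequences were not used here.

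**Figure D5:**
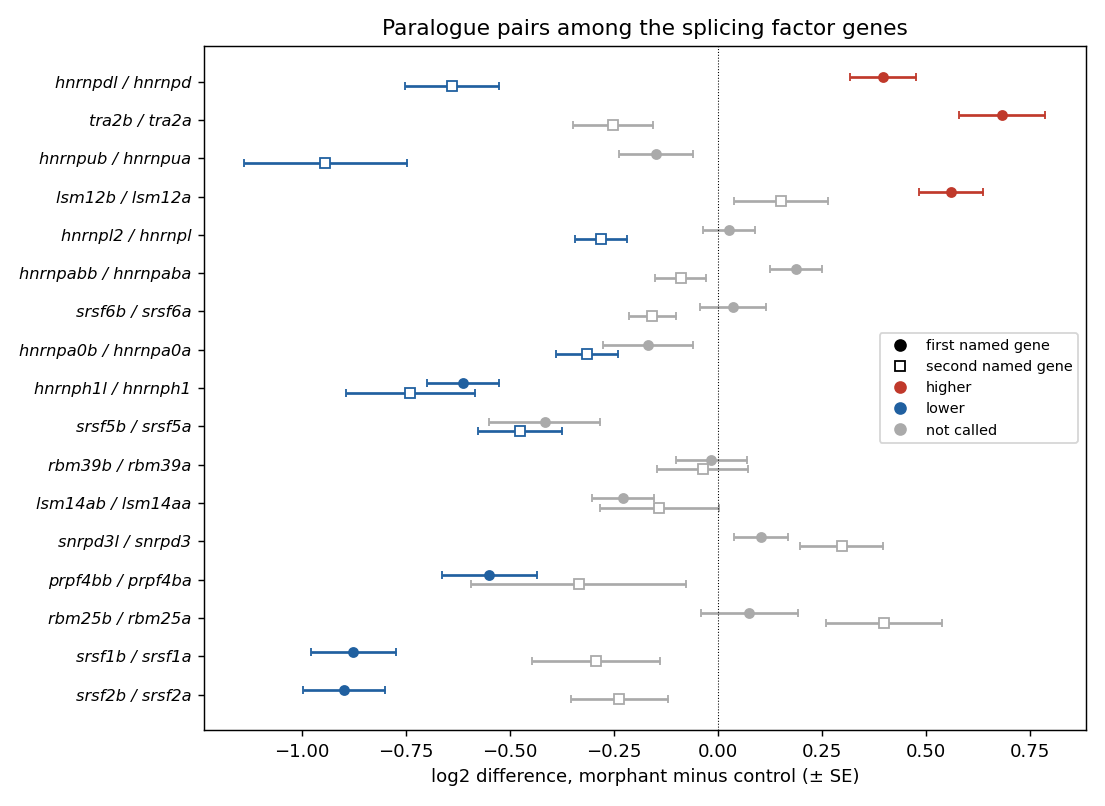
Log2 difference between morphants and controls with its standard error (horizontal axis) for the 2 genes of each of 17 pairs, coloured by call. The pairs with the widest positive and negative gaps are hnrnpdl with hnrnpd (1.04) and srsf2b with srsf2a (−0.66).

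In the Prp class the decrease of yju2 was the largest of all 102 genes. As the rule names yju2 singly and was set with earlier results known, this rank is not independent of the choice. Its yeast counterpart Yju2 joins the spliceosome for the first catalytic step. The gene had control levels of 1018, 1107 and 1029 and morphant levels of 483, 356 and 299.8, so that the highest morphant was under the lowest control by a wide margin. The level fell by 63.6% (−1.46 ± 0.16, adjusted p = 0.00155), 2.74-fold, the only change of at least 2-fold among the brightest probe sets of the members. Without each array in turn the yju2 difference lay between −1.64 and −1.31 and stayed called (adjusted p up to 0.0144).

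The gene prpf4bb, a counterpart of the human kinase PRPF4B, which phosphorylates tri-snRNP proteins, measured 776, 846 and 824 on the control arrays against 626, 554 and 483 on the morphant arrays. All morphants lay below all controls (−0.55 ± 0.11, adjusted p = 0.0291), but leaving out any array but morphant 1 ended the call (largest adjusted p 0.135). The other 10 Prp genes were not called. With the replicate block 4 of the 12 (33.3%) were lower, beside 10.6% of all named genes. That share includes yju2, which was chosen singly with earlier results known, so it is not independent of the choice. The 4 genes were prpf3, prpf19, yju2 and prpf4bb. The gene prpf19, the brightest of the class, encodes a counterpart of the ubiquitin ligase at the centre of the Prp19 complex. It stood at 4979, 5349.8 and 5105 in the controls compared with 4509, 4534 and 4413 in the morphants, without overlap (−0.20 ± 0.05, adjusted p = 0.0695, and 0.0176 with the block). The tri-snRNP gene prpf3 had control levels of 535, 414 and 407 and morphant levels of 413, 367 and 274, where morphant 1 lay within the controls (−0.36 ± 0.17, adjusted p = 0.275, and 0.0361 with the block). A second prpf3 probe set gave −0.50 ± 0.15. The gene prpf8, for the large U5 protein at the catalytic centre, had a difference of +0.19 ± 0.12 with a 95% interval of −0.07 to +0.45. Its further probe sets gave +0.23 ± 0.18 and, at levels of 14.2 to 40.1, −0.34 ± 0.19, and neither was called. The tri-snRNP bridging gene prpf6 stood at +0.02 ± 0.07 (−0.15 to +0.18).

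In the snRNP core class the Sm ring gene snrpd1 rose. It measured 5105, 5447 and 4707 on the control arrays against 7475, 7601 and 6850.4 on the morphant arrays, with every morphant well above every control. The increase was 43.7% (+0.52 ± 0.07, adjusted p = 0.00370). The other riser, lsm12b, has an Lsm domain by name but its product is not known as a part of the spliceosomal snRNPs. It stood at 1312, 1407 and 1348 in the controls compared with 2127, 1995 and 1905 in the morphants (+0.56 ± 0.08, adjusted p = 0.00474), and a further lsm12b probe set gave +0.41 ± 0.08 (adjusted p = 0.0182). Both genes stayed called without each array in turn (adjusted p up to 0.0274 and 0.0361).

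The other Sm ring genes were not called. Among them, snrpe (−0.01 ± 0.06), snrpf (−0.08 ± 0.07), snrpg (−0.17 ± 0.08) and snrpb (+0.04 ± 0.08) had small differences, as had snrpd2 (−0.11 ± 0.13), whose probe set read 44.7 to 60.6 on the morphant arrays. The gene snrpb, the brightest of the class, had control levels of 6727, 7094 and 5941 and morphant levels of 7246, 6912 and 6167, with overlapping groups. The ring gene snrpd3 measured 1459, 1565 and 1373 on the control arrays against 2029, 1777 and 1625 on the morphant arrays, all morphants above all controls (+0.30 ± 0.10, adjusted p = 0.127), and was called only with the replicate block (0.0239). The same was true of snrpc, for a U1 protein that helps to recognise the 5' splice site, which stood at 3295, 3456 and 3469 in the controls compared with 3969, 4052 and 3711 in the morphants (+0.20 ± 0.06, adjusted p = 0.0326 with the block). Of the Lsm genes of the U6 ring, lsm4, lsm6, lsm7 and lsm8 lay between −0.15 and +0.06, and none was called. The gene lsm14ab, whose relatives act in cytoplasmic P bodies and not in splicing, had control levels of 2282, 2284 and 2402 and morphant levels of 2129.7, 1896 and 1923 (−0.23 ± 0.07, adjusted p = 0.0383 with the block). With the block the class had 4 higher and 1 lower, 22.7% of its genes beside 21.3% of all named genes. Without the block the limma adjusted p was 0.104 in snrpc and 0.118 in lsm14ab.

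The 11 genes of branch point and 3' splice site recognition ranged from −0.41 ± 0.12 in sf3a3 to +0.25 ± 0.10 in sf3a2. The replicate block, which called 21.3% of all named genes, called 27.3% of this class, 1 higher and 2 lower. Those 3 were the subunits of the SF3a trimer, which joins the U2 snRNP. The gene sf3a3 measured 1185, 1186 and 1084 on the control arrays against 980.3, 899.6 and 722 on the morphant arrays (adjusted p = 0.0881, and 0.00935 with the block). The gene sf3a1 stood at 2139, 2226 and 2089 in the controls compared with 1860.0, 1821 and 1891 in the morphants (−0.21 ± 0.07, adjusted p = 0.116, and 0.0412 with the block). In both all morphants lay below all controls. The gene sf3a2 had control levels of 2330.4, 2595 and 2284 and morphant levels of 3117, 3008 and 2468, where morphant 3 lay within the controls (adjusted p = 0.198, and 0.0353 with the block). A further sf3a2 probe set gave +0.09 ± 0.15 and was not called, with the block or without it (limma adjusted p = 0.457 and 0.812). The gene sf3b1, the brightest of the class, measured 3711, 3302 and 3298 on the control arrays against 3407, 3153 and 2814 on the morphant arrays, a difference of −0.14 ± 0.09 with a 95% interval of −0.33 to +0.06. The remaining SF3b genes sf3b2, sf3b3, sf3b4, sf3b5 and sf3b6 lay between −0.13 and +0.06, and the U2AF genes u2af1 and u2af2b stood at −0.19 ± 0.14 and −0.10 ± 0.10.

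Of the 23 RBM genes, a set that shares an RNA recognition motif more than a common step, rbm14a was the only one called. Human RBM14 is a protein of paraspeckles. The gene stood at 939.6, 913 and 815 in the controls compared with 1512, 1299 and 1314 in the morphants, an increase of 53.6% without overlap (+0.62 ± 0.10, adjusted p = 0.0100), and leaving out control array 3 ended its call (adjusted p = 0.0608). With the replicate block, which called 21.3% of all named genes, 26.1% of the class was called, 3 higher and 3 lower. The gene rbm25a was among the former and had control levels of 22.5, 21.6 and 25.5 and morphant levels of 45.6, 27.6 and 35.4 (+0.40 ± 0.14, adjusted p = 0.0429 with the block), and it was the 1 member under the 25th percentile of all probe sets. The gene rbm5, a counterpart of a human regulator of apoptosis gene splicing, measured 816, 573 and 624 on the control arrays against 852, 852 and 918 on the morphant arrays, all morphants above all controls (+0.39 ± 0.13, adjusted p = 0.0359 with the block). The gene rbm28, whose human counterpart is nucleolar, stood at 1034, 949 and 930.3 in the controls compared with 1006, 673 and 563 in the morphants (−0.41 ± 0.19, adjusted p = 0.0412 with the block), with morphant 1 among the controls. The other 2 that were lower with the block were rbm17 (−0.34 ± 0.11) and the exon junction gene rbm8a (−0.30 ± 0.13). Without the block the limma adjusted p was 0.143 in rbm25a, 0.138 in rbm5, 0.248 in rbm28, 0.119 in rbm17 and 0.238 in rbm8a. The brightest gene of the class, rbm4.3, had control levels of 5195, 5245 and 4564 and morphant levels of 5010.4, 4437 and 4521 and was not called (−0.10 ± 0.07).

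Genes of splicing and RNA binding outside the naming rule were followed in 5 lists. The lists held 210 symbols, some of which may name the same gene, and 152 genes were measured. Of the 152 genes, 13 were lower (8.55%) and 4 higher (2.63%), beside 3.57% and 3.23% of all named genes. Their median difference was −0.07, and −0.03 without morphant array 3. With the replicate block 31 were lower and 14 higher, beside 10.6% and 10.7% of all named genes. Of 70 spliceosome proteins and helicases 5 were lower and 1 higher, or 15 and 4 with the block. Without the block 8.57% of this list was called, near the 6.8% of all named genes, and with it 27.1%, beside 21.3%. The tri-snRNP gene sart1 measured 1246, 1269 and 1126 on the control arrays against 794, 782 and 716 on the morphant arrays (−0.66 ± 0.09, adjusted p = 0.00517), and the U6 recycling gene sart3 stood at 965, 878 and 838 in the controls compared with 627, 565 and 498 in the morphants (−0.66 ± 0.11, adjusted p = 0.0143). Also lower were crnkl1 (−0.39 ± 0.09), ppil2 (−0.59 ± 0.13) and wbp4 (−0.54 ± 0.13), and the 1 that rose was smu1a (+0.34 ± 0.08, adjusted p = 0.0444). None of 13 genes of snRNP assembly and import was called in limma. An unadjusted p under 0.05 was reached by 2 of them, and by 23.9% of all named genes. With the block 1 was lower and 2 were higher, 23.1% of the list beside 21.3% of all named genes. Of 15 genes of the exon junction, cap and export the 1 called was alyref, for an mRNA export adaptor, which had control levels of 5722, 5822 and 5613 and morphant levels of 8405, 7777 and 7326 (+0.45 ± 0.06, adjusted p = 0.00369), and with the block 4 of the 15 were higher and 0 lower. The shares called in this list, 6.67% without the block and 26.7% with it, stand beside 6.8% and 21.3% of all named genes.

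Kinases of the CLK family phosphorylate SR proteins in the nucleus, and they included another pair of relatives called in opposite directions. Of 8 genes for SR protein kinases and phosphatases 1 was lower and 1 higher, or 1 and 2 with the block. That is 25% and 37.5% called, beside 6.8% and 21.3% of all named genes. The largest increase of the list was +0.86, in a gene other than clk2b that was not called without the block. The gene clk2a measured 255, 192 and 224 on the control arrays against 128, 104 and 94.0 on the morphant arrays (−0.95 ± 0.15, adjusted p = 0.0103), and clk2b stood at 491, 549 and 497 in the controls compared with 720.4, 749 and 698 in the morphants (+0.48 ± 0.10, adjusted p = 0.0243). All morphants lay below all controls in clk2a and above them in clk2b. Leaving out control array 3 or morphant array 2 ended the clk2a call, and leaving out any array but morphant 1 ended the clk2b call (largest adjusted p 0.0570 and 0.135). Of 46 alternative splicing regulators and other RNA-binding proteins 7 were lower and 1 higher, or 14 and 2 with the block. In this list 17.4% were called without the block and 34.8% with it. The 4 with the smallest p were the helicase ddx3xa (−0.73 ± 0.10), the paraspeckle gene sfpq (−0.37 ± 0.06), the epithelial splicing regulator esrp2 (−0.62 ± 0.11) and celf1 (−0.46 ± 0.08), and the 1 that rose was esrp1, the relative of esrp2, at +0.57 ± 0.11 (adjusted p = 0.0243). The gene esrp1 had control levels of 708, 679.9 and 720.2 and morphant levels of 904, 1075 and 1185, and esrp2 measured 317, 294 and 317 on the control arrays against 203, 186 and 197 on the morphant arrays, without overlap in either. Of the 17 called genes outside the rule, sart1, alyref, sfpq and ddx3xa passed in all 6 fits with 1 array left out, and each of the other 13 calls ended in at least 1 of them.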

How the data were processed

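The deposited values are PLIER intensities on a linear scale, which, per the submitters' processing notes, the authors computed in Expression Console 1.1. Their background and normalization settings were not given in the sources used here. After 115 control probe sets were left out, 15502 remained, 10795 with 1 symbol, 135 with several and 4572 without one. The array medians of log2(intensity + 16) ranged over 0.19, and quantile normalization was applied. Printed levels are these values turned back to intensity, less the pseudocount of 16. The groups were tested with the R package limma 3.58.1 (R 4.3.3), using a trended eBayes moderation of a linear fit, two-sided, with p-values adjusted over all 15502 probe sets without a filter, with a threshold of 0.05. The code was run on simulated data with known changes as a check of the code alone, drawn with the moderated standard deviations after a first version with the unmoderated ones had missed its recovery limit.

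Members matched the rule by platform symbol, and the symbols updated through gene identifiers gave the same 102. The members and gene lists were chosen with earlier results of these data known. Every member could be named. Array values are given for called members, the brightest of each class and up to 3 per class called only with the replicate block. Outside the rule, up to 4 called genes of a list were named by smallest p, some with their difference alone, and esrp1, smu1a and wbp4 were added after their values were seen. The relatives were paired after the values were seen. Same-numbered arrays of the 2 groups shared their deviations from the group mean (r of 0.58, 0.46 and 0.54 for the 3 numbers, over probe sets, which are not independent), and were treated as paired in the blocked fit. The labels state no such pairing, and the correlations between arrays of different numbers are not given here. Alternatives covered normalization, pseudocount, a filter on dim probe sets, variance moderation, array weights, the block, the probe set rule and leaving out each array. Figures were drawn with matplotlib 3.10.9. No sequence of the members was used here.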

Additional observations from a re-analysis of the deposited data

How the results depend on the processing

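With 3 arrays per group, most counts changed in at least 1 fit with 1 array left out, which also has fewer arrays. The share of all named genes called in each of these fits is not given here. Without each array in turn, the members called higher ranged from 3 to 6 and those called lower from 5 to 22. Calls lower ranged from 2 to 6 in the SR class, 2 to 9 in the hnRNP class, 0 to 1 in the snRNP core, 0 to 1 in the U2 class, 1 to 2 in the Prp class and 0 to 3 in the RBM class. Calls higher ranged from 0 to 1 in the hnRNP class and 0 to 2 in the RBM class, and those of the splicing genes outside the rule from 1 to 8 higher and 3 to 22 lower. The median difference ranged from −0.26 to −0.10 in the hnRNP class and from −0.22 to −0.018 in the Prp class. It ranged from −0.11 to −0.04 over all members, −0.29 to −0.19 in the SR class, −0.13 to −0.03 in the U2 class and −0.08 to −0.03 outside the rule, and it changed sign in the RBM class (−0.07 to 0.02) and the snRNP core (−0.01 to 0.06). The difference of snrpb ranged from −0.028 (without control replicate 3) to 0.11 (without Ovo1 morphant replicate 3) and was −0.0098 without Ovo1 morphant replicate 1. With the replicate block, the members called were 12 higher and 26 lower, with 9 lower in the SR class, 3 higher in the hnRNP class, 4 higher and 1 lower in the snRNP core, 1 higher and 2 lower in the U2 class, 4 lower in the Prp class, 3 higher and 3 lower in the RBM class, and 14 higher and 31 lower outside the rule. The replicate block ended no call of a member. Over all named genes the block called 10.6% lower and 10.7% higher. With array weights the members called were 12 higher and 24 lower, with 3 higher in the hnRNP class, 4 higher and 1 lower in the snRNP core, 1 higher and 2 lower in the U2 class, 3 higher and 3 lower in the RBM class, and 14 higher and 32 lower outside the rule. The RBM median was 0.06 with these weights. The share of all named genes called with them is not given here. Median centring and moderation without a trend each left 4 higher and 10 lower members. In both, 3 SR genes were lower, and 5 hnRNP genes were lower and 0 higher. The values as deposited left 4 higher and 13 lower members, with 0 higher hnRNP genes. The calls of srsf3b, srsf4, hnrnpa0a, hnrnpdl and hnrnpl ended with median centring, those of srsf4, srsf5a, hnrnpa0a, hnrnpdl and hnrnpl without a trend, and those of hnrnpdl and hnrnpl on the values as deposited. With the average over all probe sets of each gene the call of hnrnpa0a ended, and 9 genes outside the rule were higher. The shares of all named genes called under median centring, without a trend, on deposited values and with this average are not given here. A general change in calls therefore cannot be told apart from a change in these genes. No member's call ended with a pseudocount of 1 or 64, or with the filter on dim probe sets. The cause of these changes was not tested.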

Other observations

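The 102 members had 130 probe sets, and 20 members had more than 1. In 13 of these 20 every probe set lay on the same side of 0. Of the 28 further probe sets 1 was higher and 2 were lower, and none was called against the brightest one. The gene hnrnpa0b, of the A/B group of hnRNPs, had the widest spread described here. Its brightest probe set gave −0.17 ± 0.11, while another had control levels of 537, 183 and 279 and morphant levels of 682, 400.1 and 659.6, in the order of replicates 1, 2 and 3. Each morphant exceeded the control of its own number there, and control 1 lay among the morphants. That probe set gave +0.87 ± 0.35 (limma adjusted p = 0.193, and 0.00588 with the replicate block), and its adjusted p ranged from 0.0438 to 0.458 without each array in turn. It was picked after its values were seen.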
